A study of Mus musculus with 36 samples.

Results

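Fkbp5 and 9 other genes of glucocorticoid signalling (Tsc22d3, Sgk1, Errfi1, Zbtb16, Dusp1, Nr3c1, Hsd11b1, Serpina6 and Cdkn1a) were followed in the livers of mice that lack the insulin receptor in hepatocytes. They were taken by name from the array annotation, as 10 of the 23056 genes measured, and every probe carrying one of these names was read, 20 in all. Fkbp5 was picked because its control rise from ZT8 to ZT16 is absent in knockouts, so it was chosen by its signal at those 2 times in both genotypes, and those values are given as a description, with no test. The other genes were placed beside it because they respond to glucocorticoids, carry the hormone, activate it or receive it.

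RNA from 36 livers was hybridised to Agilent 1-colour mouse expression arrays, 6 livers in each of 6 groups. All mice were 11-week-old C57BL/6J males on chow, fed freely and untreated, under 12 h of light and 12 h of darkness. The knockouts (labelled IRLKO, IRhep-/- in the design) carry loxP sites around the fourth exon of the insulin receptor gene and a tamoxifen-inducible Cre, TTR-CreTam, driven by the transthyretin promoter. The controls are labelled IRLWT (IRhep+/+). When tamoxifen was given, and whether controls carry the Cre, is not given in the sources used here. Livers of each genotype were taken at zeitgeber time 8 (ZT8, late in the light phase), ZT12 (lights off) and ZT16 (in the dark phase). The labels number 6 replicates per group, read here as separate mice. If they are not, the p-values measure only the spread between these samples.

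Glucocorticoids are steroid hormones of the adrenal cortex whose blood level in mice peaks around the start of the dark, active phase. They bind the glucocorticoid receptor (Nr3c1), which waits in the cytosol in a complex with the chaperones Hsp90 and Hsp70 and their partners, then enters the nucleus and binds DNA at the glucocorticoid response element, a pair of inverted AGAACA motifs. Fkbp5 encodes FKBP51, an Hsp90 partner that lowers the receptor's affinity for hormone. It is itself a classical target of the receptor and so closes a short feedback loop. In liver, glucocorticoids and insulin act in opposite directions on many genes of fuel metabolism.

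Signals are log2 values relative to the 75th percentile of each array, so a difference of 1 is a 2-fold change and 0 is the 75th percentile. Levels are compared between groups for 1 probe, never between probes. "Called" means a limma adjusted p (Benjamini-Hochberg over all 23056 genes) under 0.05. The array 75th percentile lay between 311 and 525 intensity units, 53.7% to 63.1% of spots were well above background, and no spot was saturated. Insr itself was lower in knockouts by 1.77, 1.88 and 1.65 (log2) at ZT8, ZT12 and ZT16 (limma adjusted p 1.2e-11, 2.2e-12 and 2.9e-11), with no overlap between genotypes at any time. Of all genes, 35.4%, 42.2% and 39.9% were called between genotypes at ZT8, ZT12 and ZT16. Of 6 hepatocyte markers 5 were measured. At ZT8, 2 of the 5 were called, each lower in knockouts, and at ZT12 and at ZT16 4, with 1 higher and 3 lower. Their summed linear level relative to the 75th percentile ran from 3693 to 4532 over all control groups. Over the knockout groups it ran from 2774 to 4109. All 4 endothelial markers were called higher in knockouts at ZT12 and 3 of 4 at ZT16. So were 3 of 5 macrophage markers at ZT12 and 1 of 5 at ZT16. Beside these, 19.6% and 19.9% of all genes were called higher at ZT12 and ZT16. The summed endothelial level ran from 23.0 to 28.8 in controls and from 28.6 to 41.2 in knockouts at ZT12, and the macrophage level from 18.1 to 46.1 and from 26.2 to 80.0. At ZT8 none of the endothelial and macrophage markers was called by limma. Of 6 stellate cell and fibroblast markers, 2 were called higher in knockouts at ZT12 and 2 at ZT16, beside 19.6% and 19.9% of all genes. The summed level of the 6 at ZT12 ran from 36.3 to 64.4 in controls and from 68.7 to 78.1 in knockouts. Of 5 lymphocyte markers 3 were measured, and those called went in both directions. In knockouts 1 was lower at ZT8, 1 higher and 2 lower at ZT12, and 1 higher and 1 lower at ZT16. Their summed levels at ZT16 ran from 10.6 to 13.3 in controls and from 7.70 to 10.7 in knockouts. Of 3 red cell markers, 2 were higher and 1 lower in knockouts at ZT12 and ZT16. The part of these cells in the differences below was not tested. In whole liver, fewer cells of a type and less RNA per cell cannot be told apart.

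The promoters of 3 members are shown because they set the genes with opposite patterns side by side: Fkbp5 and Tsc22d3, which were lower in knockouts at ZT16, and Sgk1, which was higher. Each runs from 250 bases before to 50 after an annotated start (RefSeq, GRCm38.p6) and is written 5′ to 3′ on the gene's strand, with each AGAACA or TGTTCT motif (1 arm of the element, read on either strand) in capitals, and the full element, AGAACA and TGTTCT around a spacer of 3 bases, in capitals throughout.
Fkbp5 (chr17:28486100-28486399, minus strand): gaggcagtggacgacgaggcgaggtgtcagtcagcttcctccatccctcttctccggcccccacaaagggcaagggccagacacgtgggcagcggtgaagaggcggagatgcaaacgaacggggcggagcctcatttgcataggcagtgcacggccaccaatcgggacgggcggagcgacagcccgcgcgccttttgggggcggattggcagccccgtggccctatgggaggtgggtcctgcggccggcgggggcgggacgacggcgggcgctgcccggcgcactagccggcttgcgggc
Tsc22d3 (chrX:140600473-140600772, minus strand): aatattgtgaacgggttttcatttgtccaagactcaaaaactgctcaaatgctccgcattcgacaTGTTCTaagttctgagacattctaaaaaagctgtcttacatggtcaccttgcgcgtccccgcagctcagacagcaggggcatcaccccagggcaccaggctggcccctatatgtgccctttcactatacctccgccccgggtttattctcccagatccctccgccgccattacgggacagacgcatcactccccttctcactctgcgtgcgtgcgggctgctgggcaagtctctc
Sgk1 (chr10:21993640-21993939, plus strand): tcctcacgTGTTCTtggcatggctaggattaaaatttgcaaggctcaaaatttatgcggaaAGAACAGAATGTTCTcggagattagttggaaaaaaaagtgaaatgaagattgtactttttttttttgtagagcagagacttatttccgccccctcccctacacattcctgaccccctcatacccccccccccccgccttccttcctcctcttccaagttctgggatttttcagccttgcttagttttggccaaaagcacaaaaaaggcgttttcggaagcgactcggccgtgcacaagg
The full element was found in 3 of 32851 promoter windows of this length (0.00913%), and the Sgk1 window is 1 of them, where it begins at position -189 from the start. A single arm was found in 6233 of those 32851 windows, so an arm alone is common. Of 16 windows of 7 members that were searched, 4 held an arm: 3 of the 6 Sgk1 windows and 1 of the 3 Tsc22d3 windows. Whether 4 of 16 differs from 6233 of 32851 was not tested. The Tsc22d3 window printed is the 1 of its 3 with an arm. The Sgk1 window printed is the only 1 of its 6 with the full element. Other windows of these genes, some without an arm, are not shown. The Fkbp5 window held no arm. Both motifs were searched on both strands, and an arm inside a full element counts as an arm too. A match is a description of the letters, not of receptor binding.

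Fkbp5 climbed through the day in controls. In knockouts its signal on the probe that represents the gene was highest at ZT12 and back near its ZT8 level at ZT16. The probe that represents the gene (A_55_P1952379, chromosome 17, 28536060 to 28536119, mm9) was well above background on all 36 arrays. In control livers its signal ran from 2.03 to 2.30 (median 2.14) at ZT8, from 2.98 to 4.49 (3.63) at ZT12 and from 4.56 to 5.22 (4.86) at ZT16. In knockout livers it ran from 1.91 to 3.37 (2.48) at ZT8, from 2.70 to 4.11 (3.45) at ZT12 and from 1.48 to 2.86 (2.50) at ZT16. The 3 control groups did not overlap, while the knockout ranges at ZT8 and ZT16 lay over each other. Every knockout at ZT16 was below every control of that time, by a difference of -2.45 between the groups (5.48-fold), and the control difference from ZT8 to ZT16 was 2.73 against -0.12 in knockouts. These values chose the gene and are not tested.

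The ZT12 livers were not used in that choice. There the genotypes overlapped, and knockout minus control was -0.29 (SE 0.25, 95% interval -0.80 to 0.21, n = 6 against 6, limma adjusted p 0.358). Differences from -0.80 to 0.21 lie inside this interval. It is not set against the ZT16 difference, because that value chose the gene. Within the 3 wash batches of the arrays the ZT12 difference ran from -1.33 to 0.32, negative in 2 of 3. A second probe (A_52_P481493, chromosome 17, 28574995 to 28575054), well above background on all 36 arrays, gave the same order of groups in controls, with medians of -1.27, 0.06 and 0.56. In knockouts its medians were -0.65, -0.29 and -1.81. Its knockout difference from ZT8 to ZT16 was -1.07, against -0.12 on the first probe, so the 2 probes differ on the knockout level at ZT16. The knockout ranges at ZT8 and ZT16 overlapped on each, and these differences are descriptions. On that probe the ZT12 genotype difference was -0.63 (SE 0.39, limma adjusted p 0.206 over 34680 probes). The third Fkbp5 probe was well above background on 1 of 36 arrays and is not used.

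**Figure D1:**
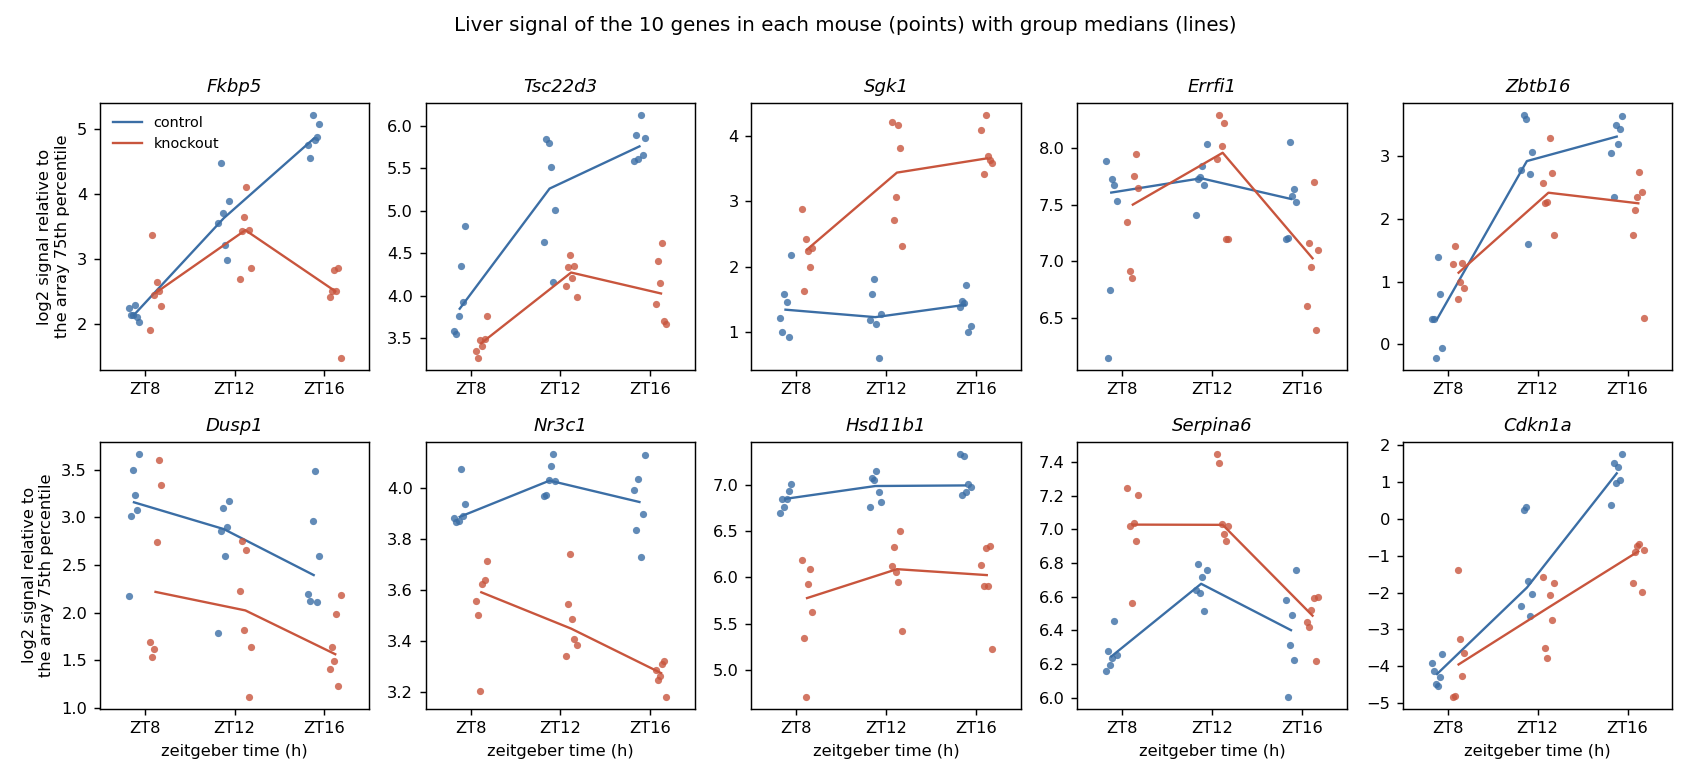
Each panel plots 1 gene, with zeitgeber time on the horizontal axis and log2 signal relative to the array 75th percentile on the vertical axis; points are single mice (6 a group) and lines join group medians, blue for controls and red for knockouts. Fkbp5 controls climb to a median of 4.86 at ZT16 while knockouts return to 2.50, and Sgk1 knockouts climb to 3.66 while controls stay near 1.42.

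Counted without Fkbp5, 5 of the 9 other genes were called between genotypes at ZT8, beside 35.4% of all genes. Of these, 2 were higher in knockouts (16.7% of all genes were) and 3 lower (18.7%), and 3 of 9 did not overlap between genotypes (15.5%). At ZT12 the count was 5 of 9, beside 42.2% of all genes, with 2 higher (19.6%), 3 lower (22.6%) and 4 without overlap (21.3%). At ZT16 it was 7 of 9, beside 39.9%, with 1 higher (19.9%), 6 lower (20.0%) and 5 without overlap (19.2%). From ZT8 to ZT16, 3 of 9 were called in controls, beside 26.6%, each higher at ZT16 (13.4%) and each without overlap (15.8%). In knockouts 5 of 9 were called over that time, beside 28.9%, with 3 higher (15.5%), 2 lower (13.4%) and 1 without overlap (9.88%). The genotype difference itself changed between ZT8 and ZT16 for 5 of 9, beside 9.75% of all genes, upwards for 1 (5.43%) and downwards for 4 (4.32%). The median ZT16 difference of the 9 was -0.86, against 0.00 over all genes, and their median change of the genotype difference was -0.61, against -0.01. Comparisons that share a group share its arrays, so these counts are not independent of each other, and the genes were put together with results of these livers known.

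Tsc22d3 encodes GILZ, a leucine zipper protein induced by glucocorticoids that carries part of their anti-inflammatory action. It was lower in knockouts at all 3 times, and its climb from ZT8 to ZT16 was smaller in knockouts than in controls. Its signal (A_55_P1989061, chromosome X, 137074094 to 137074153) ran in controls from 3.55 to 4.82 (median 3.85) at ZT8, from 4.16 to 5.85 (5.26) at ZT12 and from 5.59 to 6.13 (5.76) at ZT16. Knockouts ran from 3.27 to 3.76 (3.44), from 3.99 to 4.49 (4.27) and from 3.67 to 4.62 (4.03). The genotypes overlapped at ZT8 and ZT12 and were fully apart at ZT16.

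At ZT16 the Tsc22d3 difference was -1.66 (SE 0.21, 3.16-fold lower, limma adjusted p 1.9e-07), after -0.61 and -0.85 at the earlier times (adjusted p 0.0234 and 0.00157). The ZT8 call was lost without control ZT8 replicate 6 (-0.47, adjusted p 0.0901), the highest control of that group, and with no wash batch term (-0.54, adjusted p 0.06). Both genotypes rose from ZT8 to ZT16, controls by 1.74 (limma adjusted p 1.7e-07) and knockouts by 0.68 (adjusted p 0.0128), the latter not called with slide as a fixed block (0.57, adjusted p 0.0628). The change of the genotype difference was -1.05 (SE 0.30, limma adjusted p 0.0195). A second probe gave genotype differences of -0.89, -1.12 and -1.76, each called, and a change of -0.87 that was not (limma adjusted p 0.0749 over probes).

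Zbtb16 encodes PLZF, a zinc finger transcription factor that glucocorticoids induce in several tissues. Controls climbed between ZT8 and ZT12 and held that level, and knockouts began no lower but ended below them. Its probe lies at chromosome 9, 48462419 to 48462478. Control signal ran from -0.21 to 1.39 (median 0.40) at ZT8, from 1.61 to 3.66 (2.93) at ZT12 and from 2.35 to 3.65 (3.32) at ZT16. Knockout signal ran from 0.73 to 1.57 (1.14), from 1.74 to 3.30 (2.42) and from 0.43 to 2.76 (2.25). The genotypes overlapped at every time. Knockout ZT16 replicate 6 was the lowest of its group (0.43 against 1.75 to 2.76 in the others), as it was for Fkbp5.

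Knockout minus control for Zbtb16 was 0.69 at ZT8 and -0.43 at ZT12, neither called (limma adjusted p 0.12 and 0.323). At ZT16 it was -1.18 (SE 0.34, 2.27-fold lower, limma adjusted p 0.00656). The control rise was 2.71 (6.52-fold, limma adjusted p 4.0e-07). In knockouts the same difference was 0.84 and missed the threshold (adjusted p 0.066), although it was called without knockout ZT16 replicate 6 (1.14, adjusted p 0.00699), without control ZT12 replicate 4 or knockout ZT8 replicate 2, with quantile normalization, array weights or the authors' deposited table (adjusted p 0.0297 to 0.0478), and on the second probe (1.25, adjusted p 0.00149). The genotype difference changed by -1.87 (SE 0.49, limma adjusted p 0.0114), and by -1.42 on the second probe (adjusted p 0.0294).

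Sgk1 is a kinase that glucocorticoids and mineralocorticoids induce and that insulin signalling activates through PDK1 and mTORC2. It went the other way: higher in knockouts at every time and increasingly so, while controls were not called between ZT8 and ZT16. The probe (chromosome 10, 21719390 to 21719449) read from 0.93 to 2.17 (median 1.34) in controls at ZT8, from 0.61 to 1.81 (1.23) at ZT12 and from 1.00 to 1.71 (1.42) at ZT16. Knockouts read from 1.63 to 2.89 (2.26), from 2.32 to 4.22 (3.44) and from 3.42 to 4.32 (3.66). At ZT12 and ZT16 every knockout was above every control, and at ZT8 the ranges overlapped.

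The Sgk1 difference was 0.85 at ZT8 (SE 0.28, 1.80-fold, limma adjusted p 0.0173), 2.12 at ZT12 (4.35-fold, adjusted p 3.6e-07) and 2.46 at ZT16 (5.50-fold, adjusted p 2.8e-08). From ZT8 to ZT16 knockouts rose by 1.55 (limma adjusted p 6.6e-05) while the control difference was -0.06 (95% interval -0.63 to 0.51, adjusted p 0.911). The genotype difference changed by 1.61 (SE 0.39, limma adjusted p 0.00726), opposite in sign to that of Fkbp5, Tsc22d3 and Zbtb16. The window with the full response element printed above belongs to 1 of several Sgk1 starts. A second Sgk1 probe was well above background on 1 of 36 arrays.

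Cdkn1a encodes p21, the inhibitor of cyclin-dependent kinases, and moved most of all with time. It is dim: its probe (chromosome 17, 29237377 to 29237436) was well above background in 4 of 6 livers of each ZT8 group and in all livers later. Control signal ran from -4.55 to -3.68 (median -4.21) at ZT8, from -2.63 to 0.31 (-1.87) at ZT12 and from 0.38 to 1.76 (1.24) at ZT16. Knockouts ran from -4.83 to -1.38 (-3.95), from -3.77 to -1.57 (-2.41) and from -1.99 to -0.67 (-0.88). At ZT16 every control was above every knockout.

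The control rise of Cdkn1a was 5.34 (SE 0.51, 40.4-fold, limma adjusted p 2.6e-09), and that of knockouts 2.63 (6.18-fold, adjusted p 1.7e-04). These sizes rest on ZT8 values near background: the rises were 3.41 and 1.25 with normexp background correction, and 4.11 and 1.71 in the authors' deposited table, each still called. The genotype difference was 0.40 at ZT8 and -1.13 at ZT12, neither called (limma adjusted p 0.582 and 0.0745), although the ZT12 value was called with normexp (-0.77, adjusted p 0.0347) and with array weights (-1.29, adjusted p 0.0149), and without control ZT12 replicate 1, 5 or 6 or knockout ZT8 replicate 3. At ZT16 it was -2.31 (SE 0.51, 4.96-fold lower, limma adjusted p 5.6e-04), a change of -2.71 (SE 0.72, adjusted p 0.0136). The ZT8 value takes its sign from knockout replicate 3, the highest of its group, and was -0.12 without it.

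Dusp1 is a phosphatase that switches off MAP kinases and is induced within minutes by glucocorticoids. Its signal ran from 2.17 to 3.66 (median 3.16) in controls at ZT8, from 1.79 to 3.17 (2.88) at ZT12 and from 2.11 to 3.48 (2.40) at ZT16. In knockouts it ran from 1.53 to 3.60 (2.22), from 1.12 to 2.75 (2.02) and from 1.23 to 2.18 (1.56). Knockout medians were lower at each time, but the genotypes overlapped throughout. The differences were -0.70 (limma adjusted p 0.11), -0.69 (adjusted p 0.102) and -0.86 (SE 0.34, adjusted p 0.0444) at ZT8, ZT12 and ZT16. The ZT8 difference was called with slide as a fixed block (-0.89, limma adjusted p 0.0236) and without control ZT8 replicate 1 or knockout ZT8 replicate 5 (adjusted p 0.0371 and 0.027). The ZT16 call was lost without any 1 of 8 ZT16 livers, namely knockout replicates 1 to 5 and control replicates 3, 4 and 6, with differences between -0.90 and -0.70. It was also lost with quantile normalization (limma adjusted p 0.0571), in the authors' deposited table (adjusted p 0.0559) and with no filter on dim probes (adjusted p 0.0722).

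Errfi1, also called MIG6, is an inducible inhibitor of the EGF receptor. It was not called in any of the 6 comparisons on either of its 2 probes. Its group medians on the first probe lay between 7.55 and 7.74 in controls and between 7.03 and 7.96 in knockouts. The nearest to the threshold on that probe was ZT16, where knockout minus control was -0.50 (SE 0.26, 95% interval -1.03 to 0.03, limma adjusted p 0.124). The change of its genotype difference was -0.61 (95% interval -1.36 to 0.14, adjusted p 0.346), so on that probe a change of the size seen for Tsc22d3 is within its error. The second probe gave a change of -0.01 (SE 0.29, limma adjusted p 0.989 over probes). Its ZT16 difference was -0.41 (SE 0.21, limma adjusted p 0.115 over probes).

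**Figure D2:**
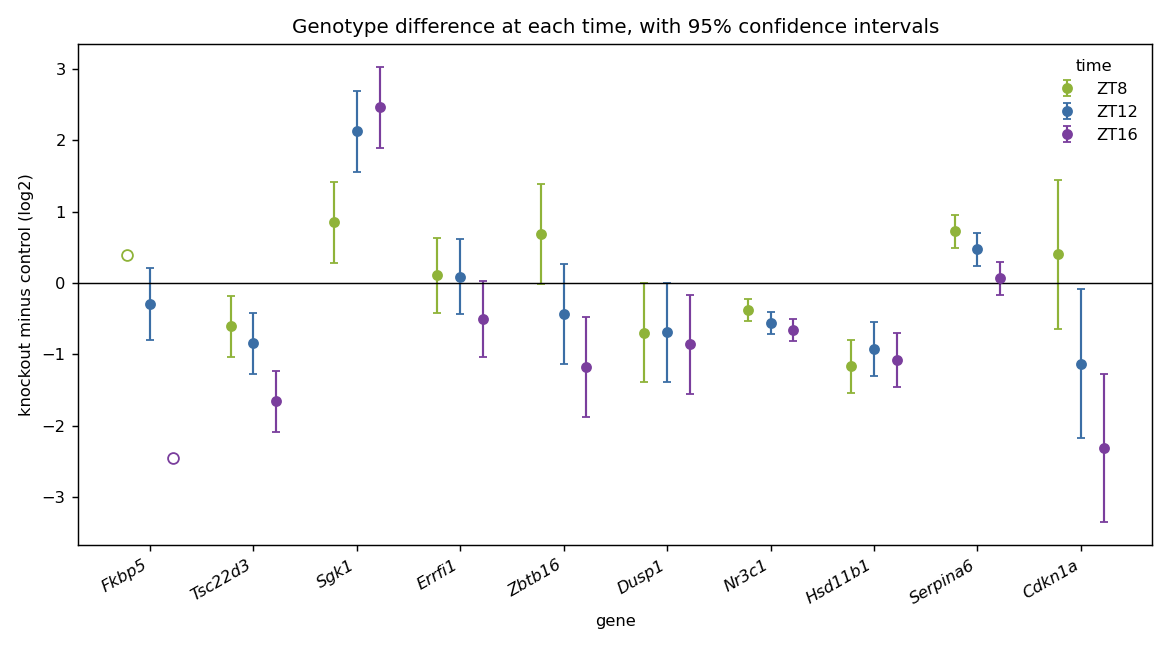
The vertical axis is knockout minus control in log2 units for each of the 10 genes, at ZT8 (green), ZT12 (blue) and ZT16 (purple), with 95% confidence intervals from the limma fit over 36 arrays; the open Fkbp5 points at ZT8 and ZT16 are descriptions, without intervals. The ZT16 points of Fkbp5 (-2.45), Cdkn1a (-2.31), Tsc22d3 (-1.66) and Zbtb16 (-1.18) lie below 0 and that of Sgk1 (2.46) above it.

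The receptor gene itself, Nr3c1, was lower in knockouts at all times. Controls ran from 3.87 to 4.07 (median 3.89) at ZT8, from 3.97 to 4.13 (4.03) at ZT12 and from 3.73 to 4.13 (3.95) at ZT16. Knockouts ran from 3.20 to 3.71 (3.59), from 3.34 to 3.74 (3.45) and from 3.18 to 3.32 (3.28). The genotypes did not overlap at any time, and the knockout range was narrowest at ZT16.

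The Nr3c1 differences were -0.38 (SE 0.08, limma adjusted p 2.5e-04), -0.56 (adjusted p 6.6e-07) and -0.67 (1.59-fold lower, adjusted p 3.2e-08). Knockouts fell by 0.28 from ZT8 to ZT16 (limma adjusted p 0.00549), while the control difference was 0.01 (95% interval -0.14 to 0.17). The change of the genotype difference, -0.29, missed the threshold (adjusted p 0.0874) and passed it without knockout ZT8 replicate 3 (-0.37, adjusted p 0.00891), without control ZT16 replicate 4 (adjusted p 0.0495) and with array weights (adjusted p 0.016). The second probe gave smaller genotype differences of 0.03, -0.23 and -0.38, of which only the ZT16 value was called (limma adjusted p 0.0161 over probes), so the 2 probes disagree on ZT8 and ZT12.

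Hsd11b1, the enzyme that regenerates active corticosterone from its inert 11-keto form inside liver cells, was about 2-fold lower in knockouts whatever the time. Control signal (chromosome 1, 195048169 to 195048228) ran from 6.70 to 7.01 (median 6.85) at ZT8, from 6.76 to 7.15 (6.99) at ZT12 and from 6.89 to 7.33 (6.99) at ZT16. Knockouts ran from 4.71 to 6.19 (5.78), from 5.43 to 6.51 (6.09) and from 5.23 to 6.34 (6.03). No knockout reached the lowest control at any time, and the knockouts were the more scattered.

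The Hsd11b1 differences were -1.17 (SE 0.18, 2.25-fold, limma adjusted p 7.7e-06), -0.93 (1.90-fold, adjusted p 1.4e-04) and -1.08 (2.11-fold, adjusted p 2.1e-05). Neither genotype was called between ZT8 and ZT16, and the change of the genotype difference was 0.09 (95% interval -0.44 to 0.62, limma adjusted p 0.899). Its genotype difference thus has no detected dependence on time at this precision, in contrast to the 5 genes whose difference changed.

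Serpina6 encodes transcortin, the plasma globulin that carries corticosterone and is secreted by the liver. It was higher in knockouts at ZT8 and ZT12, and the genotypes came together at ZT16. Controls (chromosome 12, 104884880 to 104884939) ran from 6.16 to 6.46 (median 6.25), from 6.51 to 6.79 (6.68) and from 6.01 to 6.76 (6.40) at ZT8, ZT12 and ZT16. Knockouts ran from 6.56 to 7.25 (7.03), from 6.93 to 7.45 (7.03) and from 6.22 to 6.60 (6.49). Each knockout was above each control at ZT8 and at ZT12, and at ZT16 the knockouts lay inside the control range.

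The Serpina6 differences were 0.72 (SE 0.11, 1.65-fold, limma adjusted p 7.8e-06), 0.47 (1.39-fold, adjusted p 0.00121) and 0.07 (95% interval -0.17 to 0.30, adjusted p 0.679). Knockouts fell by 0.52 from ZT8 to ZT16 (limma adjusted p 6.3e-04), the control difference was 0.14 (adjusted p 0.414), and the genotype difference changed by -0.66 (SE 0.16, adjusted p 0.00686).

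Fkbp5 is left out of the orders that follow, since its rise chose it. Of the 9 other genes, Tsc22d3, Sgk1, Zbtb16, Hsd11b1 and Cdkn1a had their highest control median at ZT16, beside 37.8% of all genes. In knockouts only Sgk1 and Cdkn1a had it then, beside 37.9% of all genes. Tsc22d3, Errfi1, Zbtb16 and Hsd11b1 had their highest knockout median at ZT12, beside 24.6% of all genes. These are orders of medians, without a test, and include differences within the spread of single groups, as for Hsd11b1. Within each wash batch, which holds 1 to 3 livers of a group, the genotype change between ZT8 and ZT16 kept its sign in 3 of 3 batches for Tsc22d3 (-1.62 to -0.29), Zbtb16 (-2.81 to -0.94), Sgk1 (1.51 to 1.86), Serpina6 (-0.86 to -0.62) and Cdkn1a (-3.67 to -2.33). Errfi1 (-1.76 to -0.0013) and Nr3c1 (-0.47 to -0.17), whose changes were not called, kept it in 3 of 3 as well. Dusp1 and Hsd11b1 kept it in 1 of 3. The share of all genes that keep it was not computed.

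The spread between mice of 1 group gave a view of the genes that the group means did not. After group means and wash batch were removed, the deviations of Fkbp5 and Zbtb16 over 36 livers had a Pearson r of 0.67 (permutation p 2.0e-05 within groups, adjusted 1.8e-04 over 9 relations) and a Spearman rho of 0.70 (permutation p 2.0e-05, adjusted 1.8e-04). Without the 2 livers farthest from the Fkbp5 median, control ZT12 replicate 2 and knockout ZT16 replicate 6, r was 0.57. A liver with more Fkbp5 than its group thus tended to have more Zbtb16. For Tsc22d3 the Pearson r was 0.36 (permutation p 0.0807, adjusted 0.363) and rho 0.26 (permutation p 0.182, adjusted 0.696), and r was 0.26 without those livers. The other 7 genes had r between -0.09 and 0.15, with adjusted permutation p of 0.754 each. A relation with Fkbp5 was thus detected for 1 of the 9 genes, which does not show that the others have none. The share of all genes with such a relation was not computed, so whether 1 of 9 is unusual cannot be said. The deviations of 2 genes in 1 liver share its RNA, array and scaling.

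**Figure D3:**
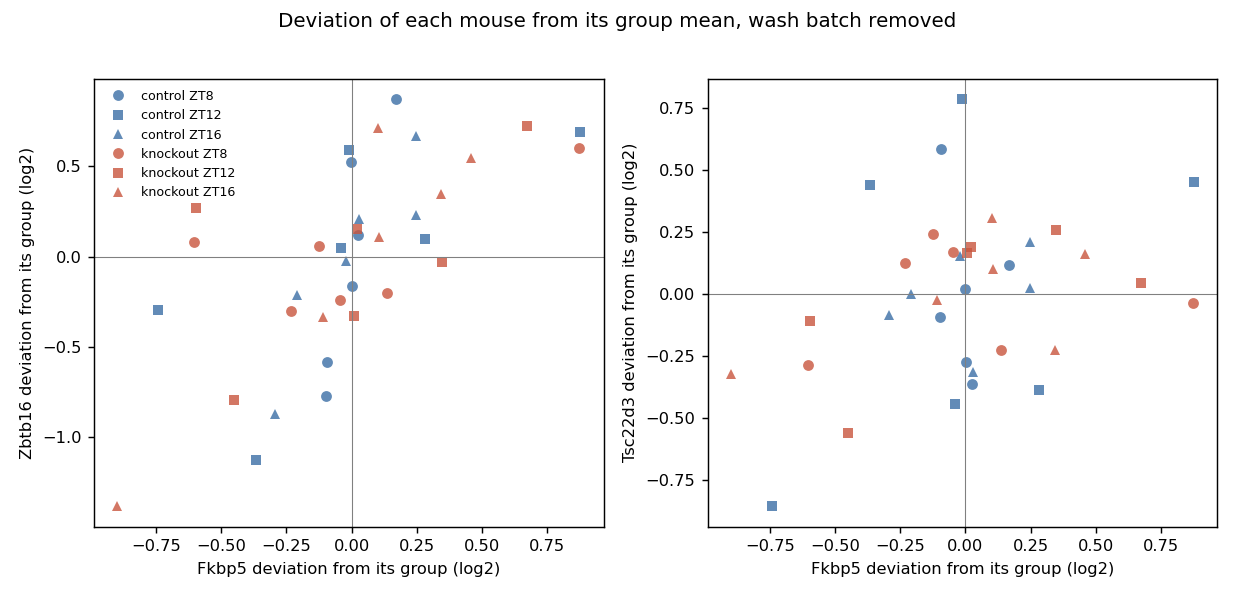
Each point is 1 of 36 livers, plotted by how far its Fkbp5 signal (horizontal) and its Zbtb16 (left) or Tsc22d3 signal (right) lay from the mean of its group, in log2 units with the wash batch effect removed; blue is control, red knockout, and shapes are times. Zbtb16 deviations climb with those of Fkbp5 (r 0.67) and Tsc22d3 deviations less clearly (r 0.36).

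The genes whose signal followed that of Fkbp5 most closely over the 36 arrays were sought among 3151 genes that were well above background on every array and whose group means spanned at least 1. The highest r belonged to AK087353, a transcript without a gene name (0.86), Fgf1 (0.86), St3gal5 (0.85), Gin1 (0.84), Dnaja1 (0.83), Zbtb16 (0.83), Cacybp (0.82) and Marveld1 (0.81), with Tsc22d3 ninth (0.80). Fgf1 is a fibroblast growth factor, St3gal5 the synthase of the ganglioside GM3, and Dnaja1 a cochaperone of Hsp70. These correlations are a description over arrays that share groups and have no p. A pattern like that of Fkbp5 in these genes follows from how they were chosen. Mean Fgf1 signal in controls was 3.88, 4.99 and 5.39 at ZT8, ZT12 and ZT16, and in knockouts 3.91, 3.98 and 3.35. Mean St3gal5 signal was 4.39, 5.67 and 6.06 in controls and 4.61, 4.54 and 3.78 in knockouts. For both genes the knockout mean was near that of controls at ZT8 and below it at ZT12 and ZT16. Of the members in this search, Hsd11b1 ranked 404 (r 0.48), Dusp1 1454 (0.04) and Sgk1 2180 (-0.29).

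**Figure D4:**
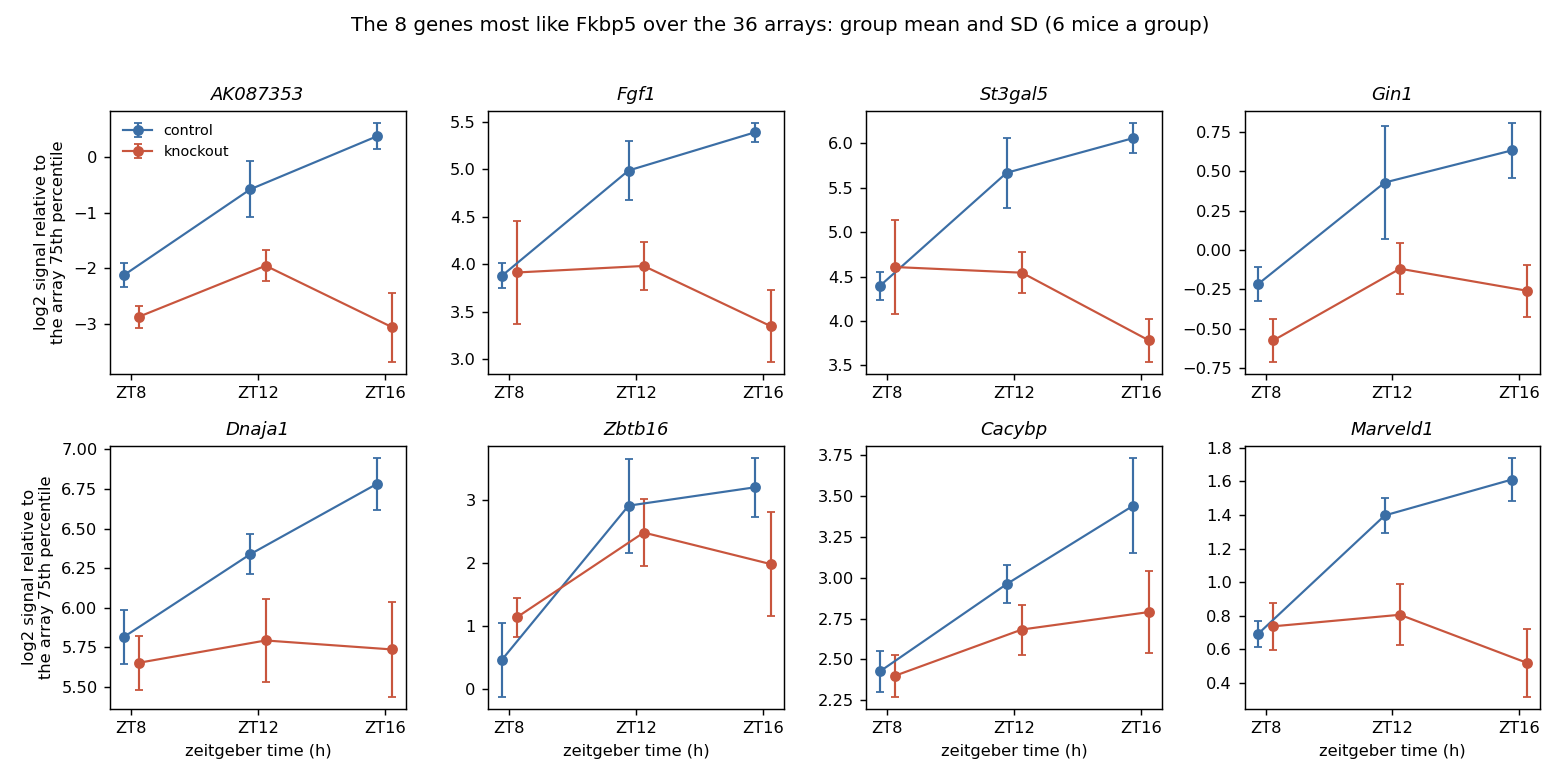
Each panel plots 1 of the 8 genes whose log2 signal over the 36 arrays had the highest Pearson r with Fkbp5, as the group mean with its SD (6 livers) against zeitgeber time, blue for controls and red for knockouts. In each panel the controls climb from ZT8 to ZT16, and the knockout mean at ZT16 is below that of controls, a likeness to Fkbp5 that follows from the choice of genes.

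The receptor and its chaperone complex were read from 14 genes (the mineralocorticoid receptor Nr3c2 and 13 chaperones and partners). At ZT8, 5 of 14 were called between genotypes (3 higher and 2 lower in knockouts, median difference 0.02 against 0.01 over all genes), a share near the 35.4% of all genes. At ZT12, 8 of 14 were called, all lower (median -0.21), beside 42.2%, and at ZT16, 11 of 14, again all lower (median -0.36 against 0.00), beside 39.9%. The ZT8 count was 3 with no filter on dim probes, and also without knockout replicate 2, 3 or 6 or control replicate 5 or 6 of that time. The ZT12 count was 5 without control ZT12 replicate 5, and 4 with quantile normalization or with the authors' deposited table of processed values. From ZT8 to ZT16, 10 of 14 rose in controls and 1, Nr3c2, fell (median 0.68), beside 26.6% of all genes called, and in knockouts 8 rose and Nr3c2 fell (median 0.25), beside 28.9%.

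The inducible Hsp90, Hsp90aa1, rose from a control median of 4.17 at ZT8 to 6.27 at ZT16, a difference of 2.16 (SE 0.13, 4.48-fold, limma adjusted p 1.6e-13), and by 1.34 in knockouts (adjusted p 2.6e-09). The Hsp70 family member Hspa8 was higher in knockouts at ZT8 (0.61, limma adjusted p 5.5e-06), not called at ZT12 (-0.03, adjusted p 0.816) and lower at ZT16 (-0.37, adjusted p 0.00218). Stip1, which hands clients from Hsp70 to Hsp90, rose by 1.31 in controls and 0.92 in knockouts (limma adjusted p 1.6e-13 and 2.3e-10). Fkbp4, whose product FKBP52 takes the place of FKBP51 when hormone binds, was lower in knockouts at ZT12 (-0.62, limma adjusted p 3.1e-06) and ZT16 (-0.59, adjusted p 7.9e-06). Nr3c2 fell by 1.86 in both genotypes and was lower in knockouts by 0.42, 0.67 and 0.41.

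The change of the genotype difference between ZT8 and ZT16 was called for 8 of the 14, all downwards (median -0.38 against -0.01 over all genes), beside 9.75% of all genes: Hspa8 by -0.98 (SE 0.13, limma adjusted p 1.3e-05), Dnaja1 by -0.89 (adjusted p 5.1e-04), Hsp90aa1 by -0.82 (adjusted p 0.00267), and Dnajb1, Hsp90ab1, Fkbp4, Stip1 and Ppid by -0.59 to -0.37. The count was 5 without knockout ZT8 replicate 2, control ZT8 replicate 1 or knockout ZT16 replicate 2, 5 with quantile normalization, the authors' deposited table or no filter on dim probes, and 4 with array median scaling. No member of the list was called upwards under any of these.

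**Figure D5:**
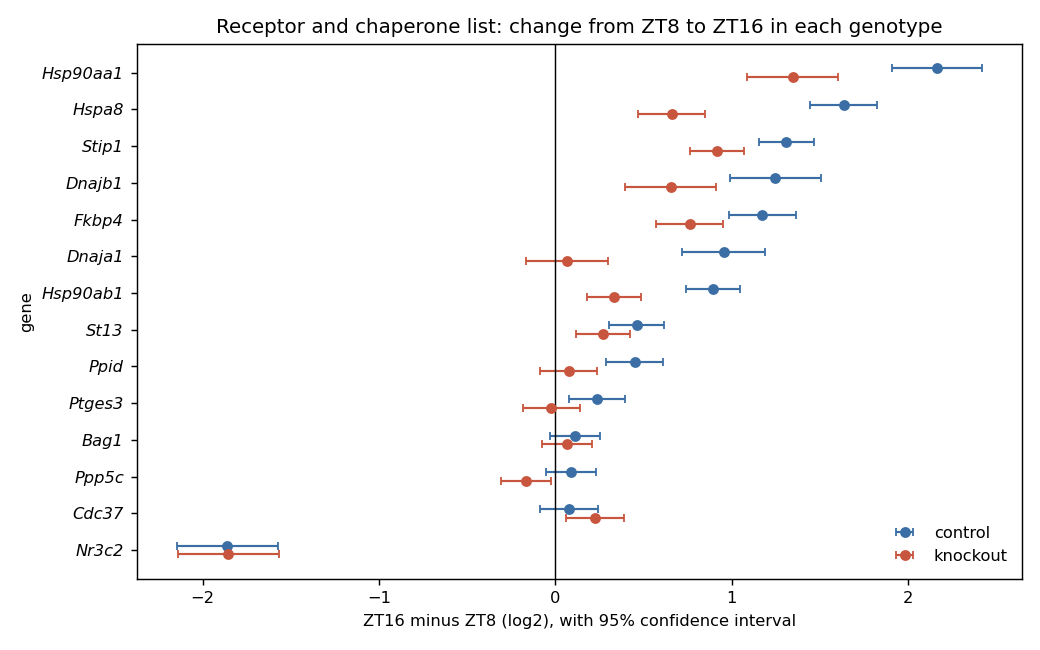
For each of the 14 genes of the receptor and chaperone list (vertical axis), the horizontal axis gives the ZT16 minus ZT8 difference in log2 units with its 95% confidence interval, blue for controls and red for knockouts. Hsp90aa1 stands at 2.16 in controls and 1.34 in knockouts, and Nr3c2 at -1.86 in both.

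Of 32 other genes known as glucocorticoid targets, 16 were called between genotypes at ZT8 (12 higher, 4 lower), beside 35.4% of all genes, 16 at ZT12 (10 and 6), beside 42.2%, and 18 at ZT16 (7 and 11), beside 39.9%. Their change of genotype difference between ZT8 and ZT16 was called for 7, all downwards (median -0.33 against -0.01 over all genes), beside 9.75% of all genes. With array weights 11 were called, and up to 2 were called upwards under another setting and up to 1 with an array left out. Per1 is a clock gene that glucocorticoids induce directly. Its control medians were 3.70, 3.64 and 3.75 at ZT8, ZT12 and ZT16, and its knockout medians 3.88, 3.63 and 1.73, so that the genotypes overlapped at ZT8 and ZT12 and were apart at ZT16 (-1.80, SE 0.21, 3.49-fold lower, limma adjusted p 3.4e-08). Per2, its partner in the clock, had control medians of 2.20, 3.12 and 3.53 against 2.13, 2.14 and 1.09 in knockouts, with differences of -0.11, -0.90 and -2.26, the last 2 called (limma adjusted p 2.5e-05 and 1.2e-12).

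Pik3r1, the regulatory subunit of PI3-kinase and was lower in knockouts by 0.80, 1.22 and 1.80 (limma adjusted p 6.4e-06, 3.2e-09 and 9.9e-13), and its genotype difference changed by -1.01 (adjusted p 2.8e-04). The other 4 genes with a called change were Mt1, Mt2, Lpin1 and Lcn2, named here after their values were seen. Igfbp1 and Gadd45b were higher in knockouts at all 3 times, as Sgk1 was. The Gadd45b difference was largest at ZT8, whereas that of Sgk1 was largest at ZT16. Igfbp1, a binding protein of insulin-like growth factors that insulin represses, was higher in knockouts by 4.05, 5.60 and 5.30 (limma adjusted p 6.5e-08, 1.1e-10 and 2.7e-10). Gadd45b, a stress-inducible gene, was higher by 3.01, 2.36 and 2.17 (limma adjusted p 6.7e-09, 4.0e-07 and 1.8e-06).

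Of 10 listed genes that act on the hormone inside the cell, 8 were measured (not Hsd11b2 and Srd5a2). At ZT8, 2 of the 8 were called between genotypes (both lower), at ZT12 5 (2 higher, 3 lower) and at ZT16 5 (1 higher, 4 lower), beside 35.4%, 42.2% and 39.9% of all genes. Srd5a1, a 5-alpha reductase that clears corticosterone, was lower at every time by 1.57, 1.34 and 1.41 (limma adjusted p 7.8e-05, 3.9e-04 and 2.5e-04), without overlap. Akr1d1, the 5-beta reductase, was not called at ZT8 (-0.06, limma adjusted p 0.834) and lower at ZT16 (-0.91, adjusted p 1.3e-04). H6pd, which supplies NADPH to the Hsd11b1 enzyme in the endoplasmic reticulum, was higher in knockouts at ZT12 (0.38, limma adjusted p 0.012) and ZT16 (0.70, adjusted p 3.0e-05), where Hsd11b1 was lower. Abcb1a, a pump that exports glucocorticoids, was lower at ZT16 (-1.50, limma adjusted p 0.00101), and Cyp3a13, of a family that hydroxylates steroids, was higher at ZT12 (0.35, adjusted p 0.0193).

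All 12 listed coregulators of the receptor were measured. Called between genotypes were 6 at ZT8 (5 higher, 1 lower), 6 at ZT12 (5 and 1) and 3 at ZT16 (2 and 1), beside 35.4%, 42.2% and 39.9% of all genes. Ppargc1a, a coactivator of gluconeogenic genes, was higher by 2.19, 2.20 and 1.89 (limma adjusted p 2.9e-10, 1.9e-10 and 3.3e-09), with no overlap. The mediator subunit Med1 was higher by 0.34, 0.35 and 0.32 and the acetyltransferase Ep300 by 0.24 and 0.33 at ZT8 and ZT12, each called. Ncoa2 fell from ZT8 to ZT16 in both genotypes, by 0.47 and 0.57 (limma adjusted p 3.7e-05 and 1.9e-06). Med14, another mediator subunit, was lower in knockouts at ZT16 (-0.60, limma adjusted p 1.5e-05).

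Among 14 measured members of the FKBP family other than Fkbp5 (Fkbp6 was not measured), 4 were called between genotypes at ZT8, all lower in knockouts. At ZT12 7 were called (2 higher, 5 lower) and at ZT16 9 (3 higher, 6 lower). The shares of all genes were 35.4%, 42.2% and 39.9%, and the median differences of the 14 were -0.16, -0.03 and -0.02. The change of the genotype difference between ZT8 and ZT16 was called for 1, downwards, beside 9.75% of all genes, and for 0 with normexp or quantile normalization. Fkbp2, of the endoplasmic reticulum, was lower by 0.40, 0.41 and 0.44 (limma adjusted p 1.5e-04, 1.0e-04 and 4.4e-05), and Fkbp8, of the mitochondrial outer membrane, by 0.27, 0.31 and 0.37 (adjusted p 0.00423, 0.00107 and 1.7e-04). Fkbp15 was called in controls from ZT8 to ZT16, lower by 0.37 (limma adjusted p 7.0e-04). The 5 lists were written with earlier results of these livers known, and their counts and medians are descriptions.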

How the data were processed

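Liver RNA of 36 mice, 200 ng per array, was measured on Agilent SurePrint G3 arrays, and spots were read with Agilent Feature Extraction 10.10.1.1, per the submitters' processing notes. The deposited scanner files give a processed signal intensity per spot, background-subtracted and not normalized between arrays, per the file headers, with flags for spots well above background. The authors' deposited table of log2 values, quantile normalized by comparison with the scanner values, was used as an alternative only. The probes' positions are those of the mm9 array design, per the file headers. The promoter windows are RefSeq GRCm38.p6.

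Here each array's log2 intensities were lowered by the 75th percentile of its own non-control spots, and outlier-flagged spots were left out. Probes well above background on at least 6 arrays were kept (34771, of which 91 lacked a value and were dropped), and the brightest probe stood for each of 23056 genes. limma 3.58.1 (R 4.3.3) fitted 6 group means and wash batch, 28 residual degrees of freedom, over all arrays, with Benjamini-Hochberg adjustment over all genes and a threshold of 0.05. Tests of single probes were adjusted over 34680 probes. Within-group correlations used 100000 permutations of mice within groups. The depth of arrays is not a count, and the number of arrays limits the precision. The fit and the permutation test were tested on simulated data.

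The genes named are the 10 members; for each list, at most 5 genes, those of smallest limma p that were well above background on all 36 arrays; the 8 genes most correlated with Fkbp5; and Insr. One gene that this rule picks is not reported here. Any other gene with values was named after its values were seen. The members and the lists were chosen with earlier results of these data known. The alternatives comprised 12 other settings and leaving out each of 36 arrays.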

Additional observations from a re-analysis of the deposited data

Results flagged for a closer look

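Of 60 groups of 6 livers (10 genes in 6 groups), 2 held a liver far from the others by Dixon's criterion, where chance alone gives about 3. Fkbp5 read 1.48 in knockout ZT16 replicate 6, below the 2.41 to 2.86 of the other 5 knockouts of that time. Nr3c1 read 4.07 in control ZT8 replicate 4, above the 3.87 to 3.94 of its group.

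The genotype difference at ZT16 differed from that at ZT8, by the interaction term in limma, for 5 of the 9 genes beside Fkbp5. The change was -1.05 for Tsc22d3 (adjusted p 0.0195), 1.61 for Sgk1 (adjusted p 0.00726), -1.87 for Zbtb16 (adjusted p 0.0114), -0.66 for Serpina6 (adjusted p 0.00686) and -2.71 for Cdkn1a (adjusted p 0.0136). Sgk1 is the only one of these 5 with a positive change.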

How the results depend on the processing

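Counts of called members kept within 1.5 times of those reported under all 12 other settings and with each of 36 arrays left out: 4 to 6 of 9 at ZT8, 5 to 6 at ZT12, 6 to 7 at ZT16, 3 in controls over time, 4 to 7 in knockouts over time, and 5 to 6 for the change of the genotype difference. The Fkbp5 difference at ZT12 ran from -0.33 to -0.16 over the settings and from -0.47 to -0.12 with 1 array left out, never called. No pairing of the mice by replicate number was detected, which does not exclude one. Same-numbered deviations correlated by -0.16 to 0.15, with 4 of 18 pairs over 0.1, and 5 of 18 knockouts correlated best with their own number. With the replicate block the counts were 5, 6, 7, 3, 6 and 5, and the Fkbp5 difference at ZT12 was -0.30 (limma adjusted p 0.323). Of 2592 values for 54 gene results, 2530 kept direction and call, 14 lost the call, 23 gained it and 25 turned sign. Those that turned sign were never called, and the cause was not tested. The Nr3c1 control time difference was -0.025 with normexp, -0.0050 with quantile normalization, -0.039 with array median scaling, -0.0056 with the authors' deposited table or array weights, and -0.0035 with slide as a fixed block. The Dusp1 change was 0.12 with slide fixed, the Hsd11b1 change -0.0062 with array weights, and the Serpina6 ZT16 difference -0.027 with array median scaling. With 1 array left out the ranges were -0.14 to 0.11 for Sgk1 over time in controls, -0.11 to 0.22 and -0.0036 to 0.28 for Errfi1 at ZT8 and ZT12, -0.32 to 0.12 for the Dusp1 change, -0.042 to 0.053 for Nr3c1 over time in controls, -0.11 to 0.21 for the Hsd11b1 change, -0.015 to 0.14 for Serpina6 at ZT16 and -0.12 to 0.65 for Cdkn1a at ZT8. Over all genes, array weights called 4034 changes of the genotype difference against 2248, and fitting only the groups compared called 4360 genes over time in knockouts against 6662. Array median scaling called 3154 higher of 9098 at ZT16 against 4593 of 9204, 2797 of 7816 at ZT8 against 3856 of 8164, and over time 2122 of 5379 in controls against 3086 of 6130 and 2429 of 6214 in knockouts against 3565 of 6662. Cdkn1a was near background at ZT8, which limits its fold changes over time.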
